A study of Mus musculus with 5 samples.

Results

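The genes described here are 10 enzymes that build heparan sulfate, taken by symbol from tables of 23284 gene symbols. They are the xylosyltransferases Xylt1 and Xylt2, the chain polymerases Ext1 and Ext2 with the initiating enzyme Extl3, and the sulfation enzymes Ndst1, Ndst2, Hs2st1, Hs6st1 and Hs6st2. Xylt1 was chosen by its measured values, for its strong drop in EpoR-null neural tubes, so its difference between the groups is given as a description, with no test. The other 9 genes were listed by function.

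PolyA RNA was sequenced in 5 libraries from mouse neural tubes labelled E8.5, while the study states a slightly later stage, and how many embryos went into a library is not given in the sources used here. EpoR, the gene of the erythropoietin receptor, was deleted on both alleles in 2 libraries (EpoR -/-, EpoR-null), intact in 2 (EpoR +/+, wild type) and labelled as deleted on a single allele in 1 (EpoR +/-). The embryos came from crosses of EpoR +/- mice without further treatment. The wild type libraries and the library labelled heterozygote together formed the 3 littermate controls. The deletion is present in every cell of the embryo, so a difference in the neural tube cannot be told apart from one that follows changes elsewhere in the embryo.

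Heparan sulfate is a long, sulfated sugar chain that is attached to core proteins such as glypicans and syndecans at the cell surface and perlecan and agrin in the matrix. It is built in the Golgi in steps: a xylosyltransferase places xylose on a serine of the core protein, a short linker is completed, EXTL3 commits the linker to heparan sulfate, the EXT1 and EXT2 proteins extend the chain together, and sulfotransferases then modify it. In the early neural tube such chains bind FGF, Wnt, BMP and Hedgehog ligands and affect their spread and their binding to receptors.

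Reads counted on genes ranged from 19316126 to 41169218 per library, so that 3 reads corresponded to between 0.0714 and 0.151 CPM (read counts scaled to library sizes that were normalised by the trimmed mean of M-values). Epor itself had 2.35 and 1.62 CPM in wild type replicates 1 and 2, 0.475 CPM in the library labelled heterozygote, and 0.353 and 0.668 CPM in EpoR-null replicates 1 and 2. The library labelled heterozygote thus lay between both EpoR-null libraries, on 11 reads, and Epor separated the wild type from the EpoR-null libraries but not all controls from them (log2 fold change -1.51, SE 0.76, exact test of edgeR, adjusted p = 0.2797). That library also had the lowest summed level of blood, vessel and several other non-neural markers. Its summed level of 8 primitive erythroid markers was 44.1 CPM while wild type had 602.8 and 1091 CPM and EpoR-null 964.6 and 1691 CPM, and its 6 endothelial markers summed to 11.5 CPM against 134.3 to 277.3 CPM in the other libraries. The same library had 32.6 CPM of 5 neural crest markers against 96.96 to 150.8 CPM in the others. Ets1 made the largest gap (12.8 CPM against 51.9 to 82.3 CPM), while Foxd3 (4.71 CPM) was close to wild type replicate 2 (4.78 CPM). It had 9.16 CPM of 7 paraxial mesoderm markers against 29.9 to 79.3 CPM, and 7.39 CPM of 6 surface ectoderm markers against 19.9 to 35.4 CPM. Of the paraxial mesoderm markers, Tbx6 was highest in that library (0.907 CPM against 0.405 to 0.706 CPM), and Uncx was lowest in EpoR-null replicate 2. The 4 endoderm markers summed to 0.821 CPM in the library labelled heterozygote and to 3.80 to 5.40 CPM in the others. That gap came from Sox17 (0.259 CPM against 3.34 to 5.16 CPM). Afp, Ttr and Apoa1 had at most 0.389 CPM in any library and were not lowest in that one, so no drop of endoderm markers as a class was shown. The erythroid marker Hba-a1 was at 0 in all libraries. All 8 markers of neural progenitors were expressed, with sums of 1673 to 1898 CPM in controls and 1392 and 1695 CPM in EpoR-null, and none of them passed the thresholds of the test. The 6 newborn neuron markers summed to 937.3 CPM in EpoR-null replicate 1 and 211.5 CPM in replicate 2, against 269.1 to 451 CPM in controls. The part of these markers in the results below was not tested, and in such tissue RNA fewer cells of a type and less RNA per cell cannot be told apart.

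Xylt1 and Xylt2 encode the enzymes that start every heparan and chondroitin sulfate chain. Xylt1 had 3.30 and 3.59 CPM in wild type replicates 1 and 2 and 3.11 CPM in the library labelled heterozygote, from 80, 151 and 72 reads. In EpoR-null replicates 1 and 2 it had 0.757 and 0.528 CPM, from 15 reads in each. Both EpoR-null libraries were below every control, and the controls lay close together (3.335 ± 0.244 CPM, SD, n = 3) compared with the distance to the EpoR-null libraries (0.642 ± 0.162 CPM, SD, n = 2). The fitted log2 fold change was -2.39 (SE 0.43), which is 81.0% less Xylt1 RNA than in controls. The gene entered the fit only through the controls, because neither EpoR-null library reached the 1 CPM (of unnormalised library size) that 2 samples had to exceed. Without the library labelled heterozygote the value was -2.44, and without EpoR-null replicates 1 and 2 it was -2.65 and -2.14.

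Xylt2 did not show this drop. It had 26.8, 31.2 and 27.5 CPM in wild type replicates 1 and 2 and the library labelled heterozygote, and 23.1 and 31.8 CPM in EpoR-null replicates 1 and 2. The groups overlapped, and the EpoR-null libraries held both the lowest and the highest value. The log2 fold change was -0.05 (95% interval -0.50 to 0.39, exact test of edgeR, adjusted p = 0.9415). It turned to 0.02 without wild type replicate 2 and to 0.16 without EpoR-null replicate 1.

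Xylt2 supplied nearly all xylosyltransferase RNA in each library. Per kilobase of the longest annotated transcript, Xylt1 made up 4.49, 4.21 and 4.14% of the level of both genes in wild type replicates 1 and 2 and the library labelled heterozygote, and 1.23 and 0.629% in EpoR-null replicates 1 and 2. The level of both genes summed was 8.65 ± 0.705 CPM per kb (SD, n = 3) in controls and 8.05 ± 1.77 CPM per kb (SD, n = 2) in EpoR-null. The sum therefore differed by less than the spread between the EpoR-null libraries, although the smaller part of it fell.

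**Figure D1:**
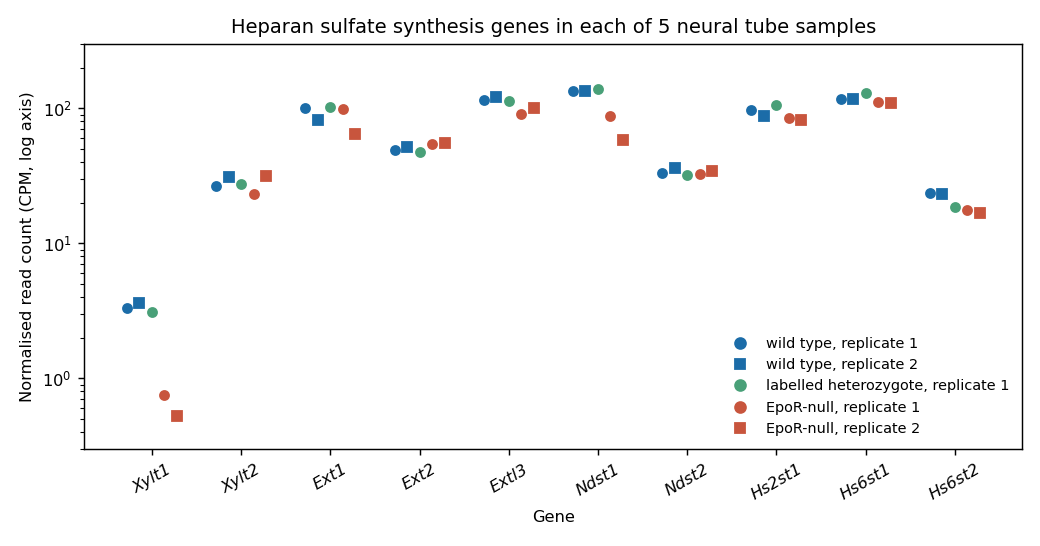
Normalised read count (CPM, log axis) of each of the 10 heparan sulfate synthesis genes in the 5 libraries, with 1 point per library, coloured by group and shaped by replicate number. The EpoR-null points lie apart from the controls for Xylt1 (0.528 and 0.757 CPM against 3.11 to 3.59) and for Ndst1 (58.8 and 87.6 CPM against 133.7 to 139.5).

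Ndst1, an N-deacetylase and N-sulfotransferase that carries out the first modification of the heparan sulfate chain and so prepares it for further sulfation, was the only one of the 9 genes other than Xylt1 that passed both thresholds (p < 0.001 and FDR < 0.05, exact test of edgeR over 12703 genes). Of all genes tested, 4.77% passed them, 3.84% with a lower and 0.929% with a higher level in EpoR-null, and 1 of 9 genes is too few to set apart from that share. At FDR alone 7.31% passed, with 5.49% of all genes lower in EpoR-null, and Ndst1 again was the only one of the 9. With single libraries left out, the count over all genes in either direction, 606, ranged from 115 (without wild type replicate 1) to 2296 (without EpoR-null replicate 1). Ndst1 had 133.7, 135.1 and 139.5 CPM in wild type replicates 1 and 2 and the library labelled heterozygote, and 87.6 and 58.8 CPM in EpoR-null replicates 1 and 2. Both EpoR-null libraries were below every control, and they differed more from each other than the controls did. The log2 fold change was -0.90 (SE 0.20, exact test of edgeR, adjusted p = 0.001113), which is 46.3% less Ndst1 RNA. The call was lost without wild type replicate 1 (-0.91, exact test, adjusted p = 0.05599) and in the quasi-likelihood F-test of edgeR (adjusted p = 0.07678). Without the library labelled heterozygote Ndst1 kept its call (-0.88, exact test, adjusted p = 0.03716).

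Ndst2, the related enzyme that carries out the same reaction, had 33.1, 36.5 and 32.3 CPM in wild type replicates 1 and 2 and the library labelled heterozygote. It had 32.8 and 34.4 CPM in EpoR-null replicates 1 and 2, both within the range of the controls. The log2 fold change was -0.02 (95% interval -0.35 to 0.32, exact test of edgeR, adjusted p = 0.9796), and it was 0.04 without wild type replicate 2 and 0.02 without EpoR-null replicate 1. Ndst1 therefore made up 69.1 to 72.3% of the level per kilobase of both genes in controls, but 61.7 and 50.7% in EpoR-null replicates 1 and 2. The log2 ratio of Ndst1 to Ndst2 was lower in EpoR-null by 0.91 (1.28 ± 0.11, SD, n = 3, against 0.36 ± 0.46, SD, n = 2). An exact permutation test of this ratio over the 5 libraries gave the smallest p these group sizes allow (two-sided, p = 0.1, and 0.3 after adjustment over the 3 pairs tested). Ndst3 and Ndst4, the remaining members of the family, had at most 44 and 9 reads in any library and were not tested.

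Among the enzymes that lengthen the chain, none passed the thresholds. Ext1, one part of the polymerase, had 99.9, 82.3 and 102.3 CPM in wild type replicates 1 and 2 and the library labelled heterozygote. It had 99.8 CPM in EpoR-null replicate 1 and 64.4 CPM in replicate 2, so that the first lay within the controls and the second below them. The log2 fold change of Ext1 was -0.21 (95% interval -0.67 to 0.25, exact test of edgeR, adjusted p = 0.678). It was -0.56 without EpoR-null replicate 1, where Ext1 passed both thresholds (exact test, adjusted p = 0.004458), and 0.07 without EpoR-null replicate 2, so its direction rested on which EpoR-null library was kept.

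Ext2, the partner of Ext1 in the polymerase, was the only one of the 10 genes with a higher fitted level in EpoR-null. It had 48.8, 51.8 and 47.9 CPM in wild type replicates 1 and 2 and the library labelled heterozygote, and 54.2 and 55.5 CPM in EpoR-null replicates 1 and 2. Both EpoR-null libraries were above every control by a small margin, and the log2 fold change of 0.15 (95% interval -0.14 to 0.44, exact test of edgeR, adjusted p = 0.6154) did not pass. The share of Ext1 in the level per kilobase of both genes ran from 43.6 to 50.9% in controls and was 47.2 and 36.0% in EpoR-null (exact permutation test of the log2 ratio, two-sided, p = 0.3, adjusted p = 0.4).

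Extl3 adds the sugar that commits a linker to heparan sulfate in place of chondroitin sulfate. Its level was 115.5, 121.5 and 113.3 CPM in wild type replicates 1 and 2 and the library labelled heterozygote, and EpoR-null replicates 1 and 2 had 91.1 and 100.4 CPM. Both EpoR-null libraries were below every control. The log2 fold change was -0.29 (95% interval -0.55 to -0.02), and in the exact test of edgeR the unadjusted p was 0.03376 and the adjusted p 0.2008, short of the threshold.

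None of the 3 enzymes that sulfate the chain after the Ndst step passed the thresholds. Hs2st1, which sulfates uronic acid residues, had 96.5, 88.3 and 105.9 CPM in wild type replicates 1 and 2 and the library labelled heterozygote, and 84.9 and 82.3 CPM in EpoR-null replicates 1 and 2. Its log2 fold change was -0.21 (95% interval -0.50 to 0.07, exact test of edgeR, adjusted p = 0.4393). Hs6st1 and Hs6st2 sulfate glucosamine residues. Hs6st1 had 116.6, 118.3 and 129.7 CPM in the same controls and 110.6 and 109.8 CPM in EpoR-null (log2 fold change -0.14, exact test of edgeR, adjusted p = 0.6087). For Hs6st2 the levels were 23.5, 23.4 and 18.6 CPM in controls and 17.7 and 16.9 CPM in EpoR-null (log2 fold change -0.34, exact test of edgeR, adjusted p = 0.4413). In all 3 genes both EpoR-null libraries lay just below the lowest control, as in 22.1% of all genes tested, and for Hs6st2 the lowest control was the library labelled heterozygote. The 95% intervals of all 3 genes included 0. The share of Hs6st1 in the level per kilobase of the Hs6st pair was 85.3 to 89.1% in controls and 88.0 and 88.4% in EpoR-null, and these ranges overlapped.

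**Figure D2:**
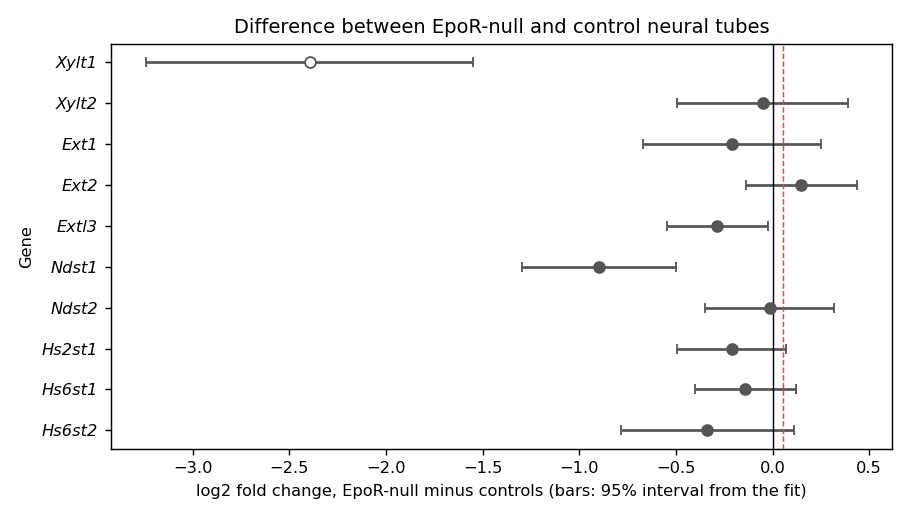
Log2 fold change (EpoR-null minus controls) of the 10 genes, with bars for the 95% interval from the negative binomial fit. The open point is Xylt1, which was chosen for this difference and not tested, and the dashed line is the median over all genes tested (0.06). Among the 9 genes other than Xylt1, the bars of Ndst1 (-0.90) and Extl3 (-0.29) do not reach 0, and only Ndst1 passed after adjustment.

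Of the 9 genes other than Xylt1, 5 had both EpoR-null libraries below all controls (Extl3, Ndst1, Hs2st1, Hs6st1 and Hs6st2) and 1 had both above (Ext2). Over all genes tested, 22.1% had both EpoR-null libraries below and 21.2% had both above, so that 43.3% had groups that did not overlap. The median log2 fold change of the 9 genes was -0.21, against 0.06 over all genes tested. Summed per kilobase, the 9 genes reached 134.6, 135.6 and 139.1 CPM per kb in wild type replicates 1 and 2 and the library labelled heterozygote, and 118.9 and 113.9 CPM per kb in EpoR-null replicates 1 and 2.

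The genes differed widely in level. In controls, per kilobase of transcript, Hs6st1 was highest (32.7 ± 1.92 CPM per kb, SD, n = 3), followed by Ndst1 (21.0 ± 0.466), Extl3 (19.4 ± 0.704), Hs2st1 (15.7 ± 1.43), Ext2 (13.3 ± 0.544), Ext1 (12.4 ± 1.43), Ndst2 (8.69 ± 0.570), Xylt2 (8.28 ± 0.682), Hs6st2 (5.01 ± 0.646) and Xylt1 (0.370 ± 0.027). Among neighbours in this order, Ext2 and Ext1 overlapped between control libraries, as did Ndst2 and Xylt2, and the others did not. In EpoR-null, Ndst1 stood in place 5 rather than 2, at 11.3 ± 3.14 CPM per kb (SD, n = 2), and Ext2 (14.7 ± 0.253) stood above Hs2st1 (13.5 ± 0.294). The values of Ndst1 there overlapped those of Hs2st1, Ext1 and Xylt2, and the other genes kept their order. These levels rest on the longest transcript of each gene in GENCODE M21, which need not be the form expressed.

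**Figure D3:**
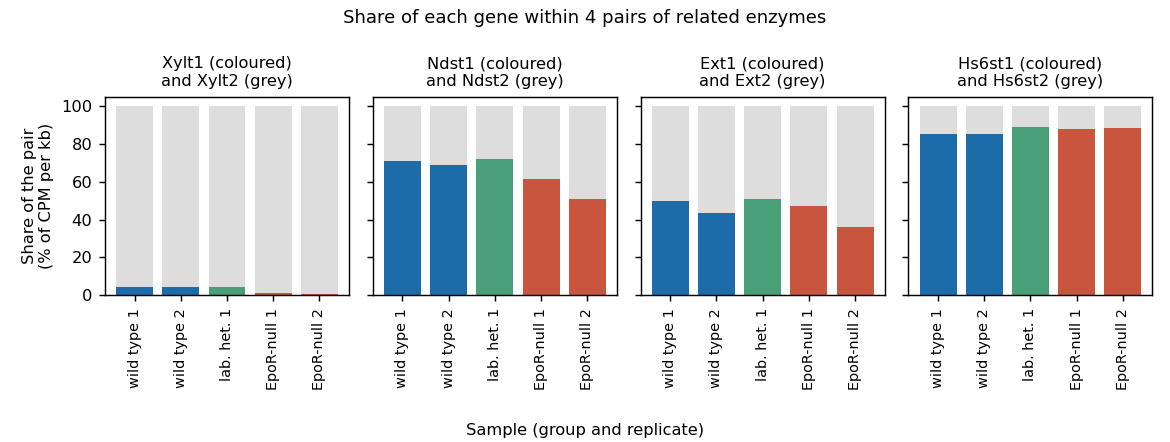
Share of the first (coloured) and second (grey) gene in the summed CPM per kb of 4 pairs of related enzymes, with 1 bar per library (lab. het. is the library labelled heterozygote). Ndst1 takes 69.1 to 72.3% of its pair in controls and 61.7 and 50.7% in EpoR-null replicates 1 and 2, while Hs6st1 stays between 85.3 and 89.1% in all libraries and Xylt1 is a small part in each.

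Transcript length moved with the difference between the groups across the whole series. Of the 12703 genes tested, 11525 had a transcript length. In the decile with the shortest transcripts the median log2 fold change was 0.43, and in the decile with the longest, from 6976 bases, it was -0.46 (Spearman's rho -0.63 across genes, which are not independent replicates and share the same libraries). Genes called lower in EpoR-null were 23.5% of the longest decile and 8.77% of decile 9, against 3.84% of all genes tested. The share over all genes is thus low for genes as long as Ndst1. Relative to the control mean, the median of the longest decile was -0.32 in EpoR-null replicate 1 and -0.68 in EpoR-null replicate 2, against -0.08 to 0.05 in the controls. In decile 9, which holds Ndst1, Extl3 and Hs2st1, it was -0.19 and -0.41 in EpoR-null replicates 1 and 2. On the same scale Ndst1 was at -0.64 and -1.21, Extl3 at -0.36 and -0.22, and Hs2st1 at -0.19 and -0.23. Ext1, in the longest decile, was at 0.08 and -0.55. Ndst1 and Ext1 were thus lower in the library with the larger shift of long transcripts, Extl3 was lower in the other one, and Hs2st1 was nearly level.

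The median transcript length of the 9 genes was 4351 bases, against 3513 bases over the tested genes with a length. Ext1, Extl3, Ndst1 and Hs2st1 were in deciles 9 and 10, and Xylt2, Ext2, Ndst2, Hs6st1 and Hs6st2 in deciles 5 to 7. Xylt1, with a transcript of 9020 bases, lay 1.93 below the median log2 fold change of its own decile, and none of the 1153 genes of that decile had a lower value (for Xylt1 a description only). Ndst1, of 6478 bases, lay below its decile's median by 0.62, and 4.86% of the genes of that decile were lower. Ext1 (7663 bases), Extl3 (6013 bases) and Hs2st1 (6177 bases) did not stand below the genes of like length, with differences from their decile's median of 0.25, -0.01 and 0.07. Hs6st2, of 4351 bases, was 0.27 below the median of its decile, where 11.1% of genes were lower. With offsets that remove each library's trend on length and GC content, the likelihood-ratio test of edgeR gave Ndst1 a log2 fold change of -0.65 (adjusted p = 0.008884), Xylt1 -1.92, Extl3 -0.04 (adjusted p = 0.9998), Ext1 0.23 (adjusted p = 0.8574) and Hs2st1 0.13 (adjusted p = 0.9998). Ndst1 passed both thresholds under the offsets, and the direction of Ext1 and Hs2st1 turned. The shares and ratios of paired enzymes given above were not adjusted for length. In the Xylt, Ndst and Ext pairs the first gene has the longer transcript, such as 6478 bases for Ndst1 against 3907 for Ndst2. Under the offsets Ndst2 was at -0.08, beside the -0.65 of Ndst1.

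**Figure D4:**
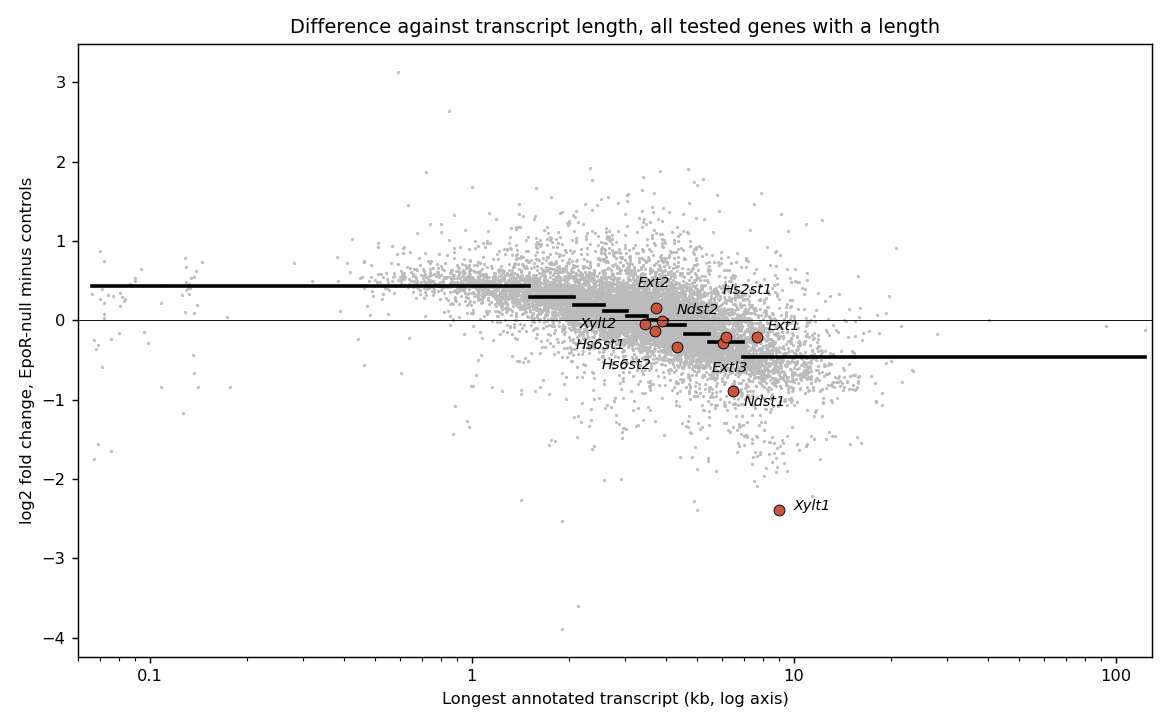
Log2 fold change (EpoR-null minus controls) against the length of the longest annotated transcript (kb, log axis) for 11525 tested genes (grey points). Black bars are the medians of deciles of genes by length, which run from 0.43 to -0.46, and red points are the 10 heparan sulfate synthesis genes. Xylt1 and Ndst1 lie well below the bars at their length, while Ext1, Extl3 and Hs2st1 lie near or above them.

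The rest of the pathway was followed in 8 lists of 91 genes, of which 73 could be tested. In the exact test of edgeR, 2 of the 73 passed both thresholds, both lower in EpoR-null, which is 2.74% against 3.84% over all genes. Leaving out single libraries changed this count to between 0 (without wild type replicate 1) and 5 (without either EpoR-null replicate), and it was 1 without wild type replicate 2. The median log2 fold change of the 73 genes was 0.01. Both are in the list of nucleotide sugar and sulfate donor supply, whose 15 tested genes had a median of 0.08 with 4 genes below 0. Slc26a2, a sulfate transporter of the cell membrane, had 11.9, 10.4 and 10.8 CPM in wild type replicates 1 and 2 and the library labelled heterozygote, and EpoR-null replicates 1 and 2 had 5.30 and 3.62 CPM (log2 fold change -1.32, SE 0.32, exact test of edgeR, adjusted p = 0.003389). Impad1, an earlier name of Bpnt2, encodes a Golgi phosphatase that clears the by-product of sulfotransferase reactions. It had 140.8, 132.5 and 144.0 CPM in the same controls and 92.2 and 67.7 CPM in EpoR-null (log2 fold change -0.80, SE 0.18, exact test of edgeR, adjusted p = 0.0009096). For both genes every EpoR-null library was below every control. Slc35b2, Gfpt1 and Slc35d1 of the same list were named after their values were seen, and none of them passed. Slc35b2, a Golgi transporter of the sulfate donor, lay the other way (log2 fold change 0.37, exact test of edgeR, adjusted p = 0.1901). Gfpt1 and Slc35d1 lay the same way, at -0.39 and -0.30 (exact test of edgeR, adjusted p = 0.1591 and 0.5158). Slc26a2 and Impad1 have long transcripts, of 7814 and 6543 bases, and with the offsets for length and GC content neither passed (likelihood-ratio test of edgeR, log2 fold change -0.86 and adjusted p = 0.1041 for Slc26a2, -0.40 and 0.2014 for Impad1). In the exact test without wild type replicate 1 the adjusted p was 0.2286 for Slc26a2 and 0.06698 for Impad1, and without wild type replicate 2 it was 0.06485 for Slc26a2. With dispersions estimated without a trend, Slc26a2 missed the threshold on p (exact test, p = 0.001529) and Impad1 kept its call.

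In the other 7 lists no gene passed both thresholds of the exact test of edgeR. Ptprz1, a chondroitin sulfate core protein, missed only the threshold on p (log2 fold change -0.66, exact test of edgeR, p = 0.001176, adjusted p = 0.02306). DESeq2 called Ptprz1, lower in EpoR-null, and B3gat3, higher. The exact test also called Ptprz1 with library sizes normalised by RLE or not normalised. It did so too without the CPM filter and with a filter of at least 10 reads in every sample. With length and GC offsets neither Ptprz1 nor B3gat3 was called. The list of 7 genes for the linker and shared first steps had a median log2 fold change of -0.11, with 4 below 0. At that median was B3gat1 (-0.109), which like B3gat2 (-0.135) is a relative of the linker enzyme B3gat3 (0.392). The linker enzymes B4galt7 and B3galt6 were at 0.045 and 0.293. The median was -0.01 for 4 further heparan sulfate enzymes (of 13 listed, the others with too few reads), -0.28 for 3 genes that edit or cleave the finished chain, and -0.095 for 13 core proteins that carry it. For chondroitin and dermatan sulfate, which share the xylosyltransferase step, 13 enzymes had a median of -0.08 and 6 core proteins a median of 0.50. That last value rested on EpoR-null replicate 1: without it the median was -0.72, with 5 of the 6 genes below 0, and without EpoR-null replicate 2 it was 1.03. The 12 lysosomal enzymes that break such chains down had a median of 0.06, that of all genes tested. With single libraries left out, the medians of the editing genes and of the chondroitin and dermatan sulfate enzymes stayed below 0, while that of each of the other lists, donor supply included, took both signs.

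**Figure D5:**
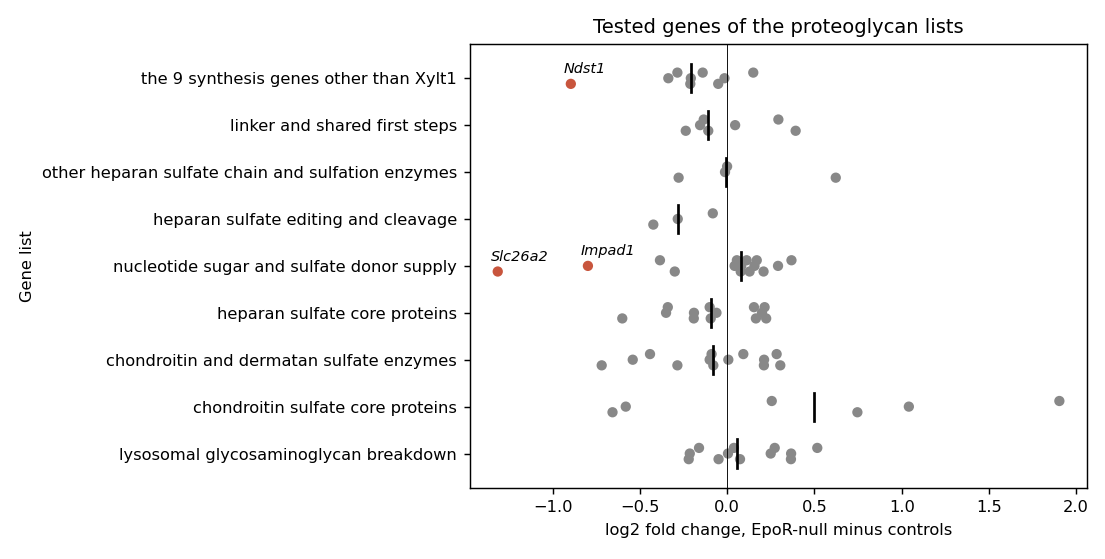
Log2 fold change (EpoR-null minus controls) of the tested genes in the 9 synthesis genes other than Xylt1 and in the 8 lists of the wider pathway, with 1 point per gene (vertical offsets only separate points) and a black bar at the median of each list. Red points passed both thresholds of the exact test, which were Ndst1 (-0.90), Slc26a2 (-1.32) and Impad1 (-0.80).

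The genes whose profile over the 5 libraries was nearest that of Xylt1 were Hipk2, Eif2c2, Shroom4, Gdf7 and Kcna3, by the root mean square distance between log2 CPM centred on each gene's mean (0.17, 0.20, 0.23, 0.25 and 0.25). Hipk2 had 41.2 to 48.5 CPM in controls and 12.8 and 8.44 CPM in EpoR-null replicates 1 and 2. In the same EpoR-null libraries Gdf7 had 0.504 and 0.387 CPM, and Kcna3 0.555 and 0.211 CPM, so both entered the fit only through the controls, as Xylt1 did. Their control values were also low, at 1.53 to 2.69 CPM for Gdf7 and 1.90 to 2.33 CPM for Kcna3. Like Xylt1, all 5 were lower in EpoR-null replicate 2 than in replicate 1. The choice by distance over these same libraries favours that order, so it is not a separate result.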

How the data were processed

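PolyA RNA of 5 neural tube libraries was compared, EpoR-null (n = 2) against littermate controls (n = 3), grouped by the sample labels. The authors deposited raw read counts per gene symbol, 1 table per library, made per the labels with Trimmomatic 0.32, TopHat2 2.1.0 and HTSeq 0.6.1. The submitters' processing notes name mm9 and the study's methods a human build, and the gene annotation is not given in the sources used here. HTSeq leaves out reads that align to several places or overlap several genes. Rows of reads outside genes (8.11 to 11.0% of uniquely aligned reads) and of ambiguous reads (1.84 to 2.31%) were not used as genes.

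The tests followed the study's methods, with edgeR 4.0.16 (R 4.3.3): TMM normalisation, tagwise dispersions and exactTest, and Benjamini-Hochberg adjustment over genes for which 2 or more libraries exceeded 1 CPM, a filter set here. A gene was called in the exact test at p < 0.001 and FDR < 0.05. Tagwise dispersions were first estimated without a trend (estimateCommonDisp and estimateTagwiseDisp), which called 351 genes. After that result was seen, the estimate was changed to estimateDisp, which shrinks towards a trend and calls 606, to match an earlier analysis of these data. Ndst1 is called with either estimate and Slc26a2 only with the second. Standard errors come from the negative binomial information, log2 CPM used a prior count of 2, and ratios of paired enzymes were compared by exact permutation tests. Nothing in the labels says how many litters were used, so the p-values cannot be said to measure spread between litters. In the exact test they rest on the spread between these libraries, with each gene's dispersion shrunk towards a trend over genes. Transcript length and GC content are those of the longest GENCODE M21 transcript, matched by symbol for 90.73% of tested genes and all 10 enzymes. Alternatives used DESeq2 1.42.0 and other edgeR tests, and the exact, quasi-likelihood (without the block), likelihood-ratio and DESeq2 tests were also run on simulated counts with known changes. The 10 genes and the lists were chosen with earlier results of these data known. Named from the wider lists were the genes past both thresholds, and near Xylt1 the 5 genes of smallest distance. Slc35b2, Gfpt1, Slc35d1, Ptprz1, B4galt7, B3galt6, B3gat1, B3gat2 and B3gat3 were named after their values were seen. Genes reported at 0 or not tested are named from the lists.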

Additional observations from a re-analysis of the deposited data

How the results depend on the processing

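The count of all genes past both thresholds (606) moved to 0 in the quasi-likelihood F-test (3052 at an unadjusted p under 0.05, lowest adjusted p 0.05898), 291 in that test with the replicate number as a block, 1028 with DESeq2, 246 with wild type controls only, 928 at FDR alone, 351 with dispersions estimated without a trend and 159 with length and GC offsets, and ranged from 115 to 2296 with single libraries left out. For the 9 enzymes (1 called) it was 0 in the quasi-likelihood F-test and 0 with the block (each with 2 at an unadjusted p under 0.05), and 0 to 2 with libraries left out. For the wider lists (2 called) these counts were 0, 0 and 0 to 5, with 4 for DESeq2, 1 without a dispersion trend and 0 with offsets (14, 17 and 5 at an unadjusted p under 0.05 for the quasi-likelihood F-test, the block and the offsets). The cause was not tested. The log2 fold change of Xylt1 was -2.19 with counts thinned to the smallest total, -1.92 with offsets and from -2.65 to -2.14 with libraries left out. The direction turned for Xylt2 (0.02 without wild type replicate 2, 0.16 without EpoR-null replicate 1, and -0.306 without EpoR-null replicate 2), Ext1 (0.23 with offsets, 0.073 without EpoR-null replicate 2, and -0.556 without EpoR-null replicate 1), Ndst2 (0.022 thinned, 0.02 without EpoR-null replicate 1, 0.04 without wild type replicate 2, and -0.055 without EpoR-null replicate 2) and Hs2st1 (0.13 with offsets). Ndst1 kept its direction and both thresholds in 14 of 17 alternatives, with an adjusted p of 0.05204 under the replicate block.

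The labels share only numbers between groups: differences between replicates 1 and 2 correlated at 0.43 between wild type and EpoR-null (Pearson's r over 12703 genes), and with 2 pairs this does not establish a pairing. The dispersion estimate with a trend was adopted after the one without had been run: without it Slc26a2 is not called (exact test, p = 0.001529, adjusted p = 0.04635). That alternative, those for Epor and the list medians, the enzyme ratios and the length deciles were chosen after seeing the data. A fit with 1 EpoR-null library assumes that it varies like the controls. With 2 libraries against 3, permutations cannot go below p = 0.1. Depth limits Xylt1 most, at 15 reads in each EpoR-null library.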
